A study of Mus musculus with 54 samples.

Results

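Of 69898 H3K4me3 chromatin contacts called in a mouse progenitor B-cell line, 33019 had no promoter-TSS region in either anchor bin. That is 47.2% of all contacts (95% Wilson interval 46.9 to 47.6). Members were chosen by position alone: neither of the paired 5 kb anchor bins overlapped, by at least 1 base, an accessible region whose annotation class was promoter-TSS. The other 36879 contacts held such a region at 1 anchor (32267 contacts) or at both (4612). The class label covers less than the words "accessible promoter" do. In 14867 members (45%, 44.5 to 45.6) an anchor bin held an accessible region centred within 1 kb of a transcription start and annotated as intron, exon, UTR or another class. The contacts are therefore called contacts without a promoter-TSS region here, and not contacts without a promoter.

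The contacts came from 2 PLAC-seq libraries of the 230-238 line, an Abelson-virus-transformed progenitor B line, deposited as 1 pooled list. The accessible regions came from 2 Omni-ATAC libraries of the same line. All other values came from fetal-liver cells labelled ProB and grown on OP9 stroma, on a C57BL6/J background, which lacked Ebf1 (Ebf1-KO), lacked E2A (E2A-KO) or were Wt. Ebf1-KO cells carrying a pMiG-Ebf1ER vector were also sampled after 0, 6, 24 and 72 h of 4OHT, which activates the Ebf1ER fusion. Fli1 and Ikzf1 peaks were called in Wt progenitors, with 1 library each. The 1172 Ebf1-bound regions rest on Ebf1 binding in the Abelson line and lie near genes the study had selected, so every Ebf1 share below is a minimum. Each list or column is a pool or a single library, so differences carry no test. Intervals cover counting error only, and contacts that share an anchor are not independent.

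PLAC-seq combines chromatin immunoprecipitation with proximity ligation, and H3K4me3 is a histone mark found mainly at active promoters. In B-cell progenitors, E2A and Ebf1 act in sequence to open and activate lineage genes, with Foxo1 and Pax5 acting alongside or after them. Fli1 is an ETS-family factor and Ikzf1 (Ikaros) a zinc-finger factor, and both bind promoters and distal elements of blood cells.

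The start windows of 4 member anchors are shown because accessible regions lay over these starts although their class was not promoter-TSS. They are RefSeq sequences of GRCm38.p6, from 250 bases before to 50 bases after each gene's start, on the gene's own strand. Capitals mark matches to TATAAA or GGGCGG on either strand, and a pair of overlapping matches prints as a longer run. Btg1 encodes an antiproliferative protein, Sox4 a transcription factor needed for B-cell development, Cxcr4 the receptor for CXCL12, and Blnk an adaptor of pre-B-cell receptor signalling.
Btg1, chr10:96616751-96617050, plus strand: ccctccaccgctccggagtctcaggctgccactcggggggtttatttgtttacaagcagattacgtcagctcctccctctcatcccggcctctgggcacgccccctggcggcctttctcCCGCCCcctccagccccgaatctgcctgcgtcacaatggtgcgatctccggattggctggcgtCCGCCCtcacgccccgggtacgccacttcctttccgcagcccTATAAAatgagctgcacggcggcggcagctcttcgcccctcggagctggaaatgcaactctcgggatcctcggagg
Cxcr4, chr1:128592250-128592549, minus strand: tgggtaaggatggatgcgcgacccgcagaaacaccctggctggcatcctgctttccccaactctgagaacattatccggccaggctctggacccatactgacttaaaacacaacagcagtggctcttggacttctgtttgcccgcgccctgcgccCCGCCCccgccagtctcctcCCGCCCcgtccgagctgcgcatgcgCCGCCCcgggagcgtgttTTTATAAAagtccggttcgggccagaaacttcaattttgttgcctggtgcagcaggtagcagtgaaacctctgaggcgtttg
Sox4, chr13:28953650-28953949, minus strand: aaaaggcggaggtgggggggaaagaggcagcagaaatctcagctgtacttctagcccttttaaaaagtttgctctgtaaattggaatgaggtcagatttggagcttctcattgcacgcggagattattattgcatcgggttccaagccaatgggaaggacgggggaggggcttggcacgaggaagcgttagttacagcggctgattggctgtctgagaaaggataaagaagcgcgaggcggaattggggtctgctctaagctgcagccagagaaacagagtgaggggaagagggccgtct
Blnk, chr19:40994172-40994471, minus strand: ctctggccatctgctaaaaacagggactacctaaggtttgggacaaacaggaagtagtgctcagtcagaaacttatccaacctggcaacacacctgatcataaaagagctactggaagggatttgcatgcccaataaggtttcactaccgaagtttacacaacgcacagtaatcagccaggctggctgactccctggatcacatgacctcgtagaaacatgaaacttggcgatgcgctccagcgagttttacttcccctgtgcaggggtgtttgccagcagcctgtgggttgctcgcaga

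For Btg1, Cxcr4 and Sox4 all 300 bases of the window lay under an accessible region of the Abelson line, and for Blnk 256 of them did. By the authors' annotation the centre of the region lay 121 bases past the start for Btg1, 384 for Sox4 and 568 for Cxcr4. For Blnk the annotation gives 381, counted from another start that lies outside the printed window. The class was 5′ UTR in each case except the Cxcr4 intron. The Btg1 and Cxcr4 windows held TATAAA and GGGCGG, while the Sox4 and Blnk windows held neither, which says only that these letters are absent from these windows.

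Over all member bins with an accessible region near a start, 2783 RefSeq start windows could be matched. Their median GC content was 60% and their median CpG observed-to-expected ratio 0.76, beside 62% and 0.808 for 7283 windows in bins with a promoter-TSS region. The 2407 windows of other member bins had a median GC content of 52.7% and a CpG ratio of 0.314, close to the 52.7% and 0.384 of all 32851 windows. GGGCGG occurred in 64.0% of the 2783 windows, in 66.3% of the 7283, in 30.6% of the 2407 and in 35.7% of all windows. The 8-base ETS-type motif CCGGAAGT occurred in 8.80%, 9.94%, 1.75% and 3.89% of the same groups, and TATAAA in 8.09%, 5.23%, 13% and 13.6%. The palindromic Ebf-type motif was rare throughout, at 0.683%, 0.989%, 1.33% and 0.904%. Both strands were searched, and no motif was read as a bound site.

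Members spanned less distance and held fewer read pairs than the other contacts. Their median span between anchor bins was 120 kb (120 to 125), against 140 kb (135 to 140) for contacts with a promoter-TSS region. Of the members, 10% spanned 20 kb or less, the middle part ran between the quartiles of 50 kb and 250 kb, and 10% spanned at least 425 kb. The shortest members spanned 10 kb and the longest 2900 kb. Their median contact count was 15 (14 to 15), against 17 (17 to 18), and ranged between 1 and 277. Members held 645875 of the 1544429 read pairs of the list. The q-value of the deposited list was under 0.01 for 57.4% of members and for 67.0% of the other contacts.

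Contact counts were lower at longer spans in both groups, and the gap between them was smaller there. Up to 50 kb the median count was 27 for members and 41 for the others. Between 50 and 100 kb it was 18 and 24, between 100 and 200 kb 14 and 17, and between 200 and 400 kb 11 and 12. Beyond 400 kb both medians were 9. Members made up 50.9% of contacts up to 50 kb and 43.5% of those over 400 kb. By chromosome their share lay between 37.2% on chromosome 17 and 55.6% on chromosome 1.

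**Figure D1:**
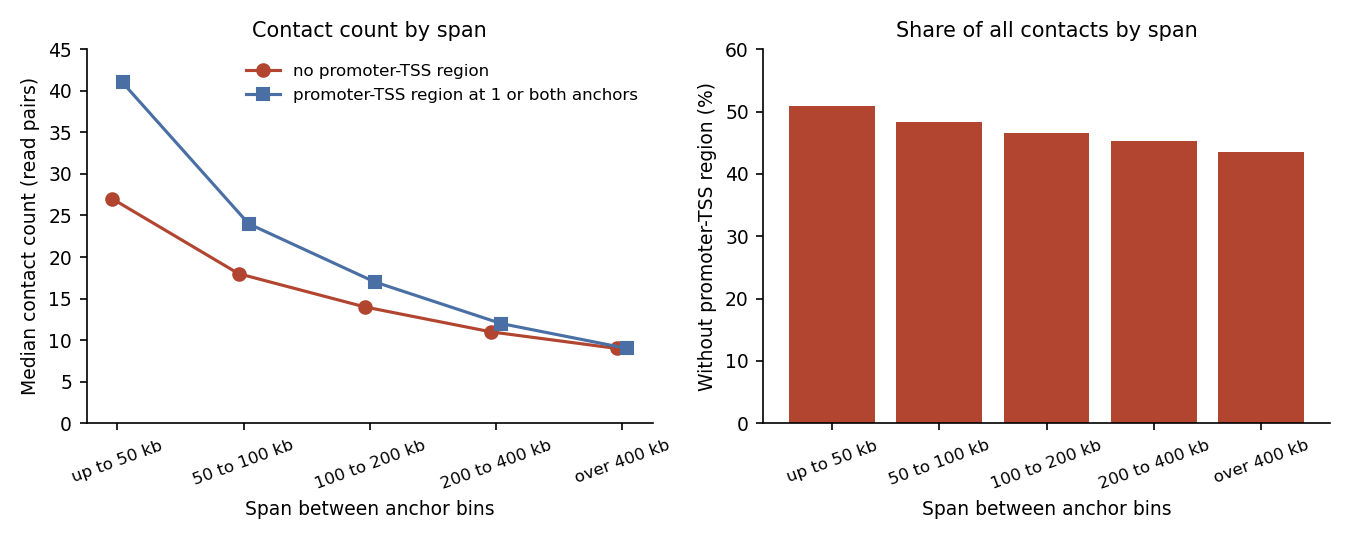
Left, median contact count (read pairs, y axis) in 5 classes of span (x axis) for contacts without a promoter-TSS region (circles) and with one (squares). Right, share of all contacts that had no promoter-TSS region (%), by the same classes. The count was 27 against 41 in the shortest class and 9 against 9 in the longest, and the share was 50.9% and 43.5% in those classes.

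At the edge of the rule, 5077 members (15.4%) had a promoter-TSS region in the bin next to an anchor, with a median count of 16 and a median span of 125 kb. The 27942 members with none in a neighbouring bin had 14 read pairs and 120 kb. Another 1458 contacts were kept out by a promoter-TSS overlap of at most 200 bases, with 17 read pairs and 135 kb.

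Most members lay on accessible chromatin of another class. An accessible region was present at both anchors of 12843 members (38.9%), at 1 anchor of 16420 (49.7%) and at neither anchor of 3756 (11.4%). Over all contacts, with regions of any class, these shares were 48.5%, 46.1% and 5.37%. Contacts with a promoter-TSS region have an accessible anchor by the rule, and 57.2% of them had accessible regions at both. Members were thus the less accessible part of the list. Members with 0, 1 and 2 accessible anchors had median counts of 11, 14 and 17. Their median spans were 100, 135 and 110 kb.

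The 21466 accessible regions in member anchors were mostly intronic or intergenic. Introns held 48.4% (47.7 to 49.0) and intergenic sequence 38.3% (37.7 to 39.0), against 49.1% and 41.2% of all 57567 accessible regions that are not promoter-TSS. Exons held 4.95% against 3.43%, and 5′ UTRs 3.64% against 1.83%. Regions within 1 kb of a start made up 15.3% of those in member anchors, against 9.24% of all and 1.64% of the 27241 at no anchor. The median distance to a start was 13.7 kb, against 23.1 kb at no anchor and 5.43 kb for the 8860 regions that lay only in the anchors of other contacts. Regions classed promoter-TSS were centred -1000 to 932 bases from a start, so those just upstream fell to that class. By this rule all 3275 near-start regions in member anchors were centred downstream of the start, at a median of 235 bases. Of these, 48.2% were annotated as intron, 23.2% as 5′ UTR and 20.9% as exon.

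Split by what lay near a start, members formed 3 groups. The 14867 with an accessible region within 1 kb of a start had a median count of 16 and a median span of 135 kb. A further 2941 (8.91%) held a RefSeq start in a bin but no accessible region near a start, with 14 read pairs and 105 kb. The remaining 15211 (46.1%) held neither, with 13 read pairs and 115 kb, and 3045 of these had no accessible region at all. Both anchors held a near-start region in 1095 members (3.32%), whose median count was 19.

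Counted per contact, Fli1 and Ikzf1 peaks were less frequent in members than in contacts with a promoter-TSS region. Ebf1-bound regions were slightly more frequent by that count, though not per anchor bin. A Fli1 peak lay in an anchor of 70.3% of members (69.9 to 70.8), against 85.5% (85.1 to 85.8). An Ikzf1 peak lay in 24.8% (24.4 to 25.3), against 33.8% (33.4 to 34.3). Of the members 23.4% had both kinds of peak, against 31.8%. The rule keeps bins with a promoter-TSS region out of members. Of the 6716 such anchor bins, 72.4% held a Fli1 peak, 21.8% an Ikzf1 peak and 3.63% an Ebf1-bound region. Of the 34955 anchor bins of members, 26.5%, 7.10% and 2.23% did. The lower Fli1 and Ikzf1 shares of members are thus not independent of the rule. An Ebf1-bound region lay in 2572 members, or 7.79% (7.51 to 8.08), against 2425 of the other contacts, or 6.58% (6.33 to 6.83). The Ebf1 share of members was 7.93% up to 50 kb and 8.71% over 400 kb, and that of the other contacts 7.00% and 6.13%. The Fli1 share of members stayed between 68.2% and 71.0% in all 5 span classes.

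These shares were higher where more anchors were accessible. With 0, 1 and 2 accessible anchors, 19.9%, 70.6% and 84.8% of members had a Fli1 peak, and 4.07%, 22% and 34.5% an Ikzf1 peak. Ebf1-bound regions, which are accessible by the construction of that list, lay in 0, 6.78% and 11.4%. Among members with a near-start region 84.5% had a Fli1 peak, against 57.0% of members with no start, while the Ikzf1 shares were 27.9% and 21.8% and the Ebf1 shares 8.64% and 7.11%.

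Counted per bin, so that a busy anchor enters once, the members used 34955 anchor bins. Of these, 46.0% held an accessible region, against 30.7% of the 15300 promoter-free bins that served only as partners in contacts with a promoter-TSS region. Among accessible bins alone, 51.7% (50.9 to 52.5) of 16085 member bins held a Fli1 peak, against 31.8% of 4692 partner bins and 24.1% of 27241 bins in no contact. Ikzf1 peaks lay in 14.7%, 5.86% and 3.39% of the same groups. Ebf1-bound regions lay in 4.85%, 2.79% and 0.676%. The groups also differed in start proximity, with an accessible region within 1 kb of a start in 21.9%, 5.90% and 2.53%. Its part in the other differences was not tested. The 18870 member bins without an accessible region held a Fli1 peak in 4.97% and an Ikzf1 peak in 0.662%.

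**Figure D2:**
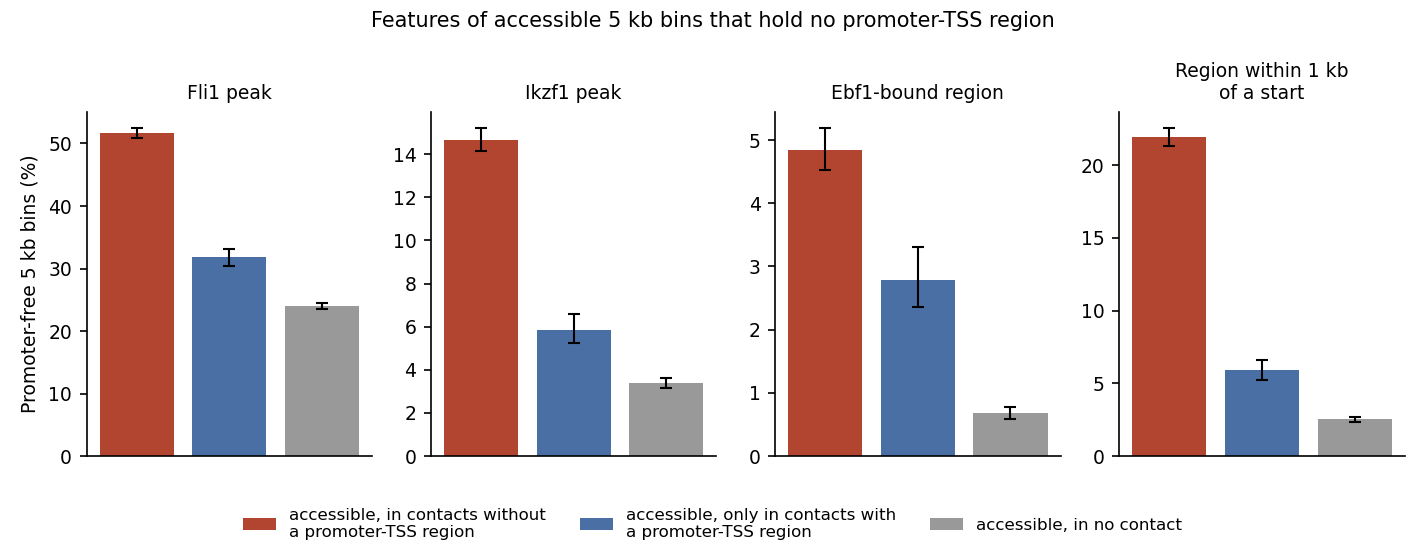
Share of accessible 5 kb bins without a promoter-TSS region (%, y axis) that held a Fli1 peak, an Ikzf1 peak, an Ebf1-bound region or an accessible region within 1 kb of a start. Bars are bins of member contacts (left), bins used only by contacts with a promoter-TSS region (middle) and bins in no contact (right), with 95% Wilson intervals. Fli1 peaks lay in 51.7%, 31.8% and 24.1%.

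Seen from the peaks, 9465 of 27261 Fli1 peaks (34.7%), 2566 of 5741 Ikzf1 peaks (44.7%) and 743 of 1172 Ebf1-bound regions (63.4%) lay in member anchors. Of the 57567 accessible regions that are not promoter-TSS, 21466 lay there as well. Of 4829 accessible regions near genes selected as enriched in Wt, taken without regard to Ebf1 binding, 54.4% did. The Ebf1-bound list lies near such selected genes and the peak lists do not, so the order of these shares does not rank the factors. The median score the authors' caller gave was 19.5 for Fli1 peaks in member anchors, 21.9 for those only in other anchors and 12.4 for those in none. For Ikzf1 the scores were 7.05, 7.05 and 6.66. An Ebf1-bound region lay at both anchors of 178 members. Those with the highest counts included contacts of bins around Gm7325 (131 read pairs), Tifab and Sh3bp5 (95 each), Bcl7a (90), Tanc1 (82), Nup210 (79), Nrarp (78), Depdc7 (75) and Vangl2 (72). These spanned 10 to 20 kb within or beside the named gene. Nrarp encodes an inhibitor of Notch signalling and Bcl7a a subunit of BAF chromatin remodelling complexes.

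The members with the highest counts were short. The top contact joined a bin at Mtdh and an intergenic bin beside it on chromosome 15 (chr15:34050001-34055000 and chr15:34080001-34085000, mm10), with 277 read pairs over 30 kb. Both anchors held Fli1 peaks. Next came a pair of contacts of bins around Hjurp, which encodes the chaperone of centromeric histone CENP-A, with 223 and 210. The Mir21a gene lay in an anchor of a contact of 212 over 10 kb. Mthfd2 to Mob1a had 189, Arid5a 184 and Rin1 to Cd248 179. A bin of Tbc1d10c and Ppp1ca and a bin of Rad9a had 181 with no accessible region at either anchor, although both held Fli1 peaks. The remaining entries of the top 10 joined clusters of tRNA genes on chromosome 13, named below.

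Anchor use was uneven. Of the 34955 bins, 23461 (67.1%) lay in 1 member, 8806 in 2 to 4, 2688 (7.69%) in at least 5 and 28 in at least 20. In contacts with a promoter-TSS region, 9991 of the bins (28.6%) served too. The busiest bin (chr2:67565001-67570000), with an intergenic accessible region assigned to Mir7224 and the start of B3galt1, lay in 35 members, and 3 of its partner bins were accessible. An Fbxl14 bin lay in 33 members, and bins of Btg1 and of Ppp3ca, a catalytic subunit of calcineurin, in 31 each. Zfp608 followed with 30, Phlda1 and Lpp/Lppos with 29 each, Sox4 with 28, and Nxn and Ppid with 26 each. These 10 bins had few contacts of the other kind, with 0 to 2 each.

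The Btg1 bin (chr10:96615001-96620000) held the start of Btg1 and an Ebf1-bound region. Its 31 members spanned 105 to 695 kb with counts up to 36, and 9 partner bins were accessible. The Sox4 bin (chr13:28950001-28955000) had 28 members at a median span of 662.5 kb, the longest 1150 kb. Its strongest contact, of 30 read pairs, reached an intron of Cdkal1 655 kb away, and 10 of its partner bins held a Fli1 peak. The Cxcr4 bin (chr1:128590001-128595000) had 23 members and no other contact, at a median span of 175 kb. Its strongest, of 44 read pairs, lay 230 kb away at an intergenic accessible region. The Cux1 bin, at the start of a homeodomain factor, had 25 members and a higher median count of 44, with a highest count of 139.

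**Figure D3:**
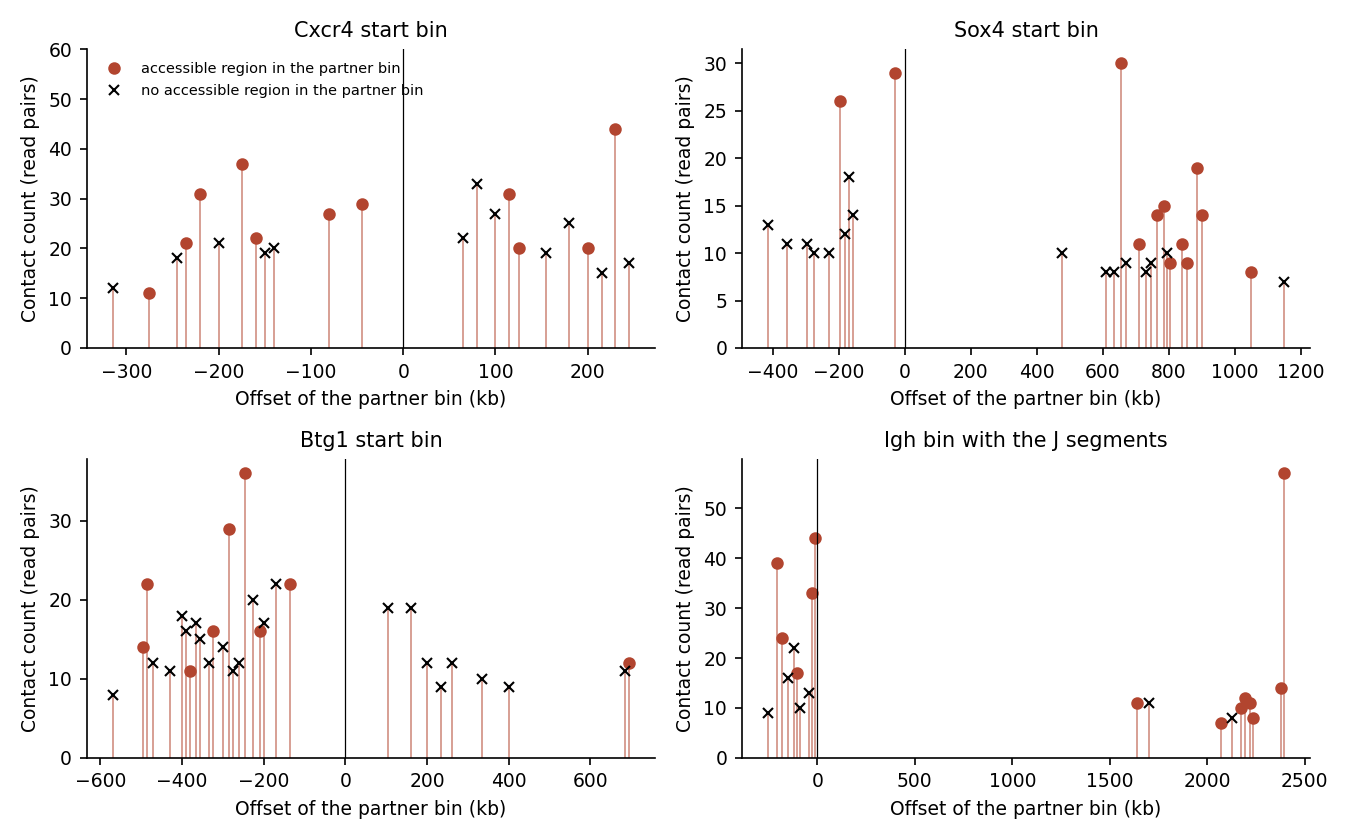
Contact count (read pairs, y axis) of each member contact of 4 anchor bins against the offset of its partner bin (kb, x axis), with the partner's accessibility as circle or cross. The Cxcr4 partners lay within 315 kb, those of Sox4 reached 1150 kb and those of Btg1 695 kb, and the bin with the J segments of Igh had member partners within 255 kb and again from 1640 kb onwards.

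Members over 1000 kb were few, with 414 (1.25%) against 685 of the other contacts (1.86%). Among the 67 of these members with at least 10 read pairs, 15 had tRNA genes at both anchors and 10 lay in the immunoglobulin heavy-chain locus Igh. The Igh, Igk and tRNA groups were picked out after the values had been seen, from the names among the longest members.

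In Igh, which V(D)J recombination assembles in progenitor B cells, all 66 contacts with both anchors in the locus were members, and so were all 40 in the light-chain locus Igk. Accessible regions in the busiest bins of both loci were annotated as intergenic and assigned to genes such as Adam6b, Mir6388 and Rprl1. A bin without a promoter-TSS label falls to the members by the rule, so these totals are not a separate result. RefSeq places Igh at chr12:113208768-116009954. Of its 66 members, 16 spanned more than 1000 kb, the median count was 8, and 40 had a Fli1 peak, 15 an Ikzf1 peak and 0 an Ebf1-bound region. The bin with segments Ighj1 to Ighj4 (chr12:113425001-113430000) lay in 19 members inside the locus, of which 10 spanned more than 1000 kb, with counts of 7 to 57. The contact of 57 read pairs reached chr12:115820001-115825000, 2395 kb away, with q = 5.12e-68. The longest member with at least 10 read pairs joined that same distal bin with a bin beside Tmem121, 2600 kb away, with 24 read pairs. An Ighm bin reached another distal bin over 2150 kb with 15.

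Between these ends lay a stretch of 1635 kb with no anchor of a contact of at least 5 read pairs. The 6 members inside it had 2 read pairs at most, while 60 members of the locus had 5 or more. A V segment lay in an anchor bin of 26 Igh members, and 27 had accessible regions at both anchors. An accessible bin with Ighv8-6 (chr12:115165001-115170000) lay in 11 members of 6 to 20 read pairs, none over 660 kb. In Igk no member exceeded 985 kb, and the counts reached 36. Over the whole genome, V segments lay in anchors of 93 members and 2 other contacts, a division that depends on the same class labels. How many cells carried a rearranged allele was not measured.

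tRNA genes, transcribed by RNA polymerase III, lay in an anchor of 525 members, or 1.59% (1.46 to 1.73), against 372 of the other contacts, or 1.01%. Both anchors held a tRNA gene in 89 members and 22 other contacts. Of the 89, 75 lay on chromosome 13, and 29 of these spanned more than 1000 kb. They joined the tRNA and histone gene clusters between Trim27 and Hist1h4h. Bins near Btn2a2 and Hist1h4h had 192 read pairs over 15 kb, and bins near C230035I16Rik and Btn1a1 had 180 over 10 kb. The bin at Trim27 (chr13:21165001-21170000) met the Hist1h4h bin over 2350 kb with 17 read pairs and the Btn2a2 bin over 2335 kb with 14. The next bin along met the Btn1a1 bin over 2275 kb with 10. In this histone region 165 of 277 contacts (59.6%) were members. Accessible regions in its busiest tRNA bins were mostly annotated as intergenic and assigned to genes such as Trim27, Btn2a2 and Hist1h4h. Whether a tRNA bin counts as a member therefore depends on these labels, and so do the shares above. tRNA genes are near-identical copies, so the placement of reads among them is uncertain.

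The other named long members were C330004P14Rik to Cited2 (2425 kb, 12 read pairs), Mia3 to Iars2 (1960 kb), Pcdh9 to an intergenic bin (1885 kb), and Gm21978 to Gm13141 (1965 kb). The last pair had no accessible region.

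miRNA genes lay in the anchors of 0.869% of members against 2.41% of the other contacts, and snoRNA genes in 0.536% against 2.20%. Bins with a promoter-TSS region are kept out of members by the rule, so these differences are not independent of it. Accessible regions assigned to 3 miRNA genes recurred in members, so their mature sequences are given from RefSeq, with the seed of bases 2 to 8 in capitals. miR-21a and miR-181a are both known in lymphocytes, and the 3 seeds differ.
mmu-miR-21a-5p, chr11:86584120-86584141, minus strand: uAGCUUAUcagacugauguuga
mmu-miR-148a-3p, chr6:51269829-51269850, minus strand: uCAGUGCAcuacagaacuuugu
mmu-miR-181a-5p, chr1:137966468-137966490, plus strand: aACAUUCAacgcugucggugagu

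The Mir21a regions in member anchors lay 1.83 to 40.1 kb from that gene. The 10 regions assigned to Mir148a lay 90.9 to 151 kb away, in 33 members of 37 contacts. Those assigned to Mir181a-1 lay 65.8 to 397 kb away, and a bin of 1 of them was in 21 members. The levels of the miRNAs were not measured.

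By the nearest gene of the accessible regions in their anchors, the genes with most members were Lpp and Trim27 (48 each), Fbxl14 and Runx1 (44 each), Ywhaz (43) and Stard3nl (41). Over all 12113 genes, 39.5% of assigned contacts were members, and 7537 genes had at least 1. A region is assigned to its nearest start, which need not be the gene it acts on. A gene's share of members also depends on the class of the region over its own start. Where that class is promoter-TSS, the contacts of that bin are not members.

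Among 23 B-lineage transcription factors 21 had members, which made up 288 of 637 contacts (45.2%). Runx1 had 44 of 86, Sox4 29 of 30, Foxo1 26 of 68, Bach2 26 of 30 and Ebf1 24 of 52. A region near the gene's own start lay in 28 of the Sox4 members, 9 of Runx1, 2 of Foxo1 and 0 of Bach2 and Ebf1. Of the Ebf1 members, 23 had an Ebf1-bound region, and the strongest joined a bin upstream of Ebf1 to one near Gm12159 over 415 kb with 40 read pairs. Pax5, the B-cell commitment factor, had 15 of 18, and its strongest member reached an intron of Zcchc7 over 65 kb with 71. Tcf3, the E2A gene, had 6 of 30, Ikzf1 5 of 22 and Fli1 16 of 32.

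In pre-B-cell receptor signalling 14 of 19 genes had members, with 112 of 218 contacts (51.4%). Blnk led with 25 of 27, of which 17 rested on the region over its start shown above. Its strongest joined an intronic bin with the start over 15 kb and had 138 read pairs. The phospholipase gene Plcg2 had 18 of 32, the adaptor gene Pik3ap1 13 of 18, and the kinase genes Lyn and Blk 10 of 11 and 8 of 9. Cd79b had 8 of 18, Igll1 1 of 5 and Cd79a 0 of 2, while Vpreb1 had no contact.

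For V(D)J recombination 7 of 11 genes had members, with 47 of 108 contacts (43.5%). Dntt, which encodes terminal transferase, had 17 of 18 and Hmgb1 17 of 39, against 0 of 2 for Rag1 and 1 of 5 for Rag2. Cytokine receptors and surface proteins had the highest share, 146 of 197 (74.1%), over 13 of 16 genes. Cxcr4 had 32 of 32, Cd24a 18 of 19, Ptprc 18 of 25 and Csf2ra 17 of 18. All 18 Cd24a members rested on a region near its start and had an Ebf1-bound region. Such a near-start region lay in 23 of the Cxcr4 members, 2 of Csf2ra and 0 of Ptprc. Cell cycle and survival genes had the lowest share of the 5 lists for this cell type, 77 of 356 (21.6%). The proapoptotic gene Bcl2l11 had 39 of 66 there, against 1 of 75 for Myc and 2 of 51 for Bcl6.

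Lists for other cell types had fewer contacts in total than the 5 lists above, with 7 to 70 against 108 to 637, and the lists differ in length. Members made up 29 of 48 contacts of T-lineage genes (60.4%, where all genes had 39.5%), with Zap70 at 15 of 20, and 25 of 70 of natural killer and innate lymphoid genes (35.7%), with Klrb1c at 20 of 21, Id2 at 1 of 22 and Nfil3 at 0 of 23. Erythroid genes had 3 members of 7 contacts (42.9%), myeloid genes 2 of 9 (22.2%) and stromal genes 2 of 18 (11.1%).

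**Figure D4:**
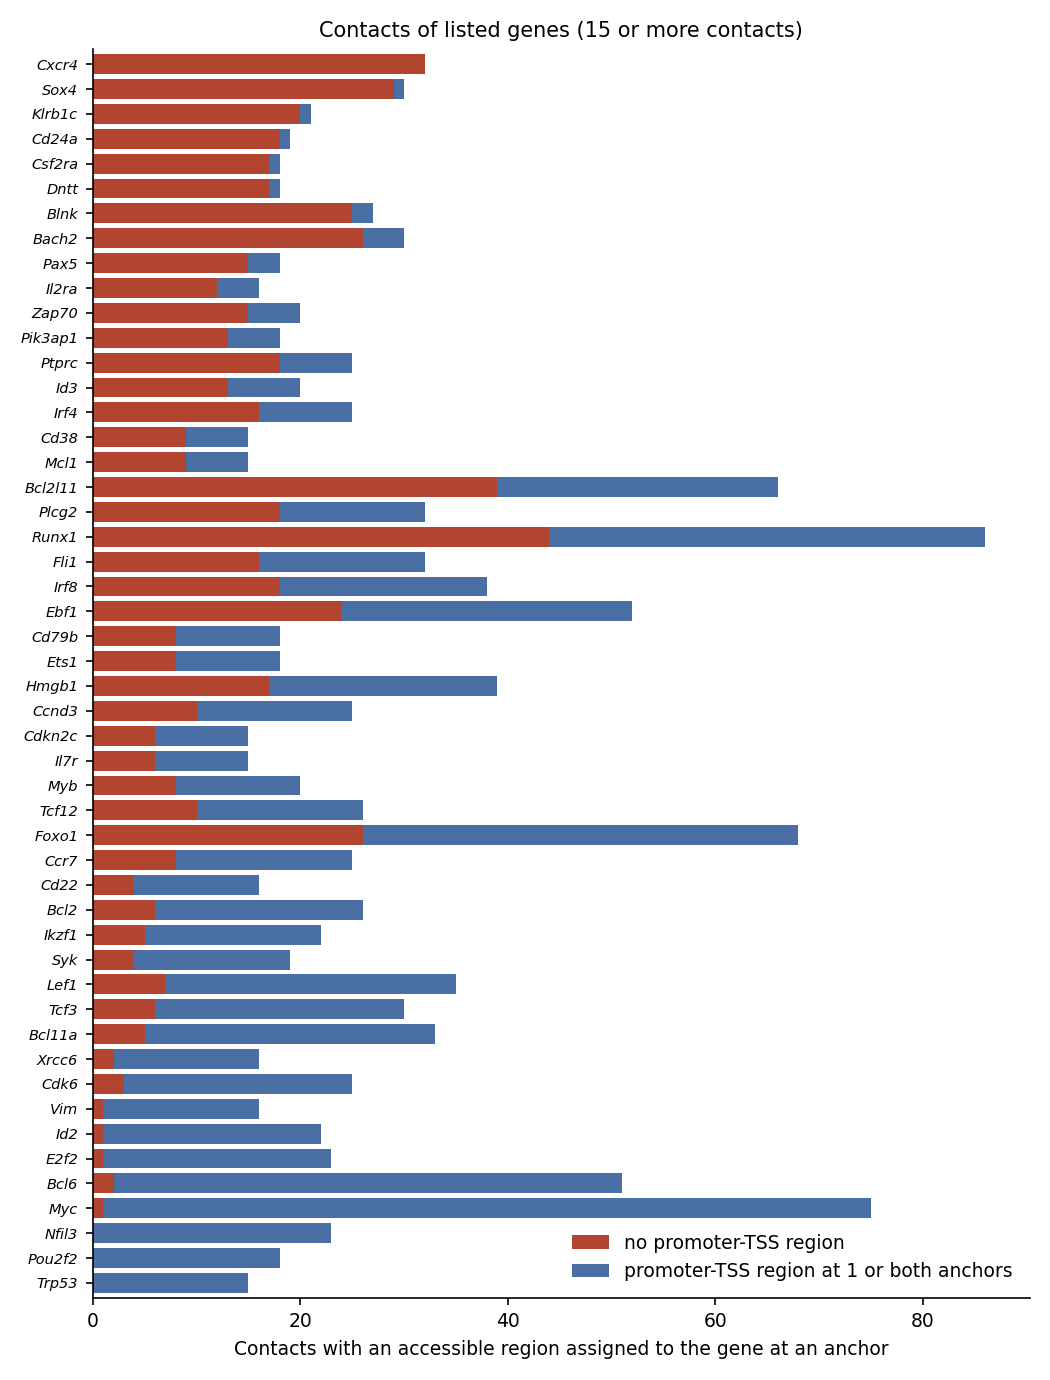
Contacts (x axis) of each listed gene with at least 15, divided into contacts without a promoter-TSS region (left part of each bar) and with one (right part), in order of the share without. Cxcr4 with 32 of 32 is at the top, and Nfil3 with 0 of 23 is among those at the bottom.

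The region tables gave the tags of fetal-liver progenitors at accessible regions near genes the study selected as enriched in Wt, and many lay in member anchors. Values are tags per 10000000 of the library, called tags, and ratios are log2 of tags plus 1. A lower value in a knockout at such selected genes is not independent evidence about them. Of 4829 regions of the E2A table, 2627 lay in member anchors, and 5 of these were promoter-TSS in that table's own annotation. Some of these regions also met promoters in other contacts. Library totals were 24557525 to 196071042 tags.

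Accessibility was lower in E2A-KO than in Wt at most member regions, about as it was over the whole table. The median was 5.95 tags in E2A-KO and 13.1 in Wt. The median log2 ratio was -0.80 (-0.85 to -0.77), against -0.76 over all regions and -0.64 at 1554 regions outside promoter-TSS and member anchors. At least 2-fold lower were 1093 (41.6%), where the share over all regions was 37.6%, and at least 2-fold higher 25 (0.952%), where it was 1.01%. With TMM factors the medians were -0.027 for members and 0.017 for all regions, and accessibility at member regions was lower at 458 (17.4%, where all had 14.8%) and higher at 140 (5.33%, where all had 5.90%).

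The lowest named regions were an Ank2 intron with 0.58 tags in E2A-KO (0.189 to 1.36) against 33.0 in Wt (30.2 to 36.0), and a 1700027J07Rik region with 4.66 against 118. Regions near Ufm1 (3.73 against 86.2) and in an intron of Nedd9 (2.56 against 58.1) followed. An intron of Tbc1d4 was highest, with 21 tags against 6.37. At Foxo1, which activates recombination and receptor genes, the regions at 127966, 175850 and 190244 bases past the start had 16.2, 15.4 and 11.7 in E2A-KO against 66.5, 104 and 53.7 in Wt. The region over the first exon had 65.9 against 101, and its log2 ratio of -0.61 became 0.28 with TMM factors. An intergenic region at -71398 bases from the Fli1 start had 20.8 against 87.6, and a Pax5 intron 4.2 against 14.5.

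Ebf1ER activation was read at the 743 Ebf1-bound regions in member anchors. Relative to 0 h, the median log2 ratio was 0.26 after 6 h of 4OHT, beside 0.26 over all 1172 regions. After 24 h the values were 0.46 and 0.47, and after 72 h 0.51 and 0.50. At least 2-fold above 0 h were 40 regions (5.38%) after 6 h, where the share over all was 5.97%, and 121 (16.3%) after 24 h, where it was 16.1%. At least 2-fold below were 4 (0.538%) after 6 h, where the share over all was 0.597%, and 8 (1.08%) after 24 h, where it was 0.853%. By 72 h, 146 (19.7%) were at least 2-fold above 0 h, where the share over all was 18.2%, and 4 (0.538%) were 2-fold below, where it was 0.597%. With TMM factors the median was 0.0070 after 6 h, -0.052 after 24 h and -0.042 after 72 h, so its direction was not kept at 24 and 72 h. Under that scaling 22 were higher (2.96%, where all had 3.41%) and 13 lower (1.75%, where all had 1.71%) after 6 h. After 24 h 45 were higher (6.06%, where all had 5.97%) and 23 lower (3.10%, where all had 2.65%), and after 72 h 53 were higher (7.13%, where all had 6.83%) and 20 lower (2.69%, where all had 2.73%).

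The 587 member regions open in Ebf1-KO had medians of 12.5, 16.4, 19.7 and 21.3 tags at 0, 6, 24 and 72 h. The 156 closed in Ebf1-KO had 2.96, 3.75, 4.1 and 4.61. The region upstream of 2410012E07Rik had 7.40, 31.4, 60.1 and 53.9 tags. Regions near Pde8a (5.29, 16.7, 26.8 and 37.7), Klf10 (2.96, 10.1, 15 and 22.8) and Asb2 (8.25, 14.7, 42.6 and 51.6) were higher than at 0 h at every later time. The Foxo1 region at 175850 bases had 13.7, 17.9, 24.9 and 44.7, and a region at -8519 bases from the Ccdc9 start had 60.9, 47.8, 65.8 and 49.6.

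Of the 3642 regions with histone marks, 2034 lay in member anchors. H3K27ac, a mark of active elements, had a median log2 ratio of Ebf1-KO to Wt of -0.75 at them, against -0.70 over all. It was at least 2-fold lower at 817 (40.2%), where the share over all was 37.4%, and higher at 20 (0.983%), where it was 1.15%. With TMM factors the median was -0.071, against -0.017 over all, and H3K27ac was lower at 437 (21.5%, where all had 19.8%) and higher at 148 (7.28%, where all had 8.07%). H3K4me3 had a median of -0.06, against 0.02, with 548 regions lower (26.9%, where all had 25.2%) and 318 higher (15.6%, where all had 15.4%).

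The repressive mark H3K27me3 had a median of -0.08, against -0.03, with 323 higher (15.9%, where all had 16.9%) and 108 lower (5.31%, where all had 4.67%). Its values were low throughout, with medians of 0.71 tags in Ebf1-KO and 0.93 in Wt. EP300, a histone acetyltransferase, had a median of -0.66 at the 743 Ebf1-bound member regions, against -0.56. It was lower at 289 (38.9%, where all had 36.9%) and higher at 83 (11.2%, where all had 11%), and with TMM factors lower at 202 (27.2%, where all had 26.5%) and higher at 158 (21.3%, where all had 21.7%). The label of the Wt EP300 library lists its antibody with a question mark as one against PolII.

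H3K4me2, PolII and BRG1 were added after the other values were known. Median log2 ratios of Ebf1-KO to Wt at member regions were -0.37, -0.79 and -0.35, against -0.18, -0.67 and -0.29 over all regions. H3K4me2 was at least 2-fold lower at 710 of the 2034 regions (34.9%, where all had 30.3%) and higher at 123 (6.05%, where all had 7.58%). PolII was lower at 876 (43.1%, where all had 39.7%) and higher at 118 (5.80%, where all had 7.03%). BRG1 was lower at 262 of the 743 Ebf1-bound regions (35.3%, where all had 32.4%) and higher at 70 (9.42%, where all had 9.98%). With TMM factors the medians were -0.24, -0.15 and -0.073, against -0.054, -0.039 and -0.00085. Under that scaling H3K4me2 was lower at 654 (32.1%, where all had 27.9%) and higher at 174 (8.55%, where all had 11.1%). PolII was lower at 580 (28.5%, where all had 25.7%) and higher at 334 (16.4%, where all had 18.4%), and BRG1 lower at 224 (30.1%, where all had 27.1%) and higher at 110 (14.8%, where all had 16.0%). The member regions were also divided by the authors' classes of accessibility in Ebf1-KO. The closed class was chosen for being inaccessible in Ebf1-KO, so lower Ebf1-KO values there are not independent evidence. Where closed, median ratios were -1.59 for H3K27ac, -1.76 for H3K4me2, -1.19 for H3K4me3, -1.63 for PolII, -1.53 for EP300 and -1.48 for BRG1. Where open, they were -0.57, -0.06, 0.23, -0.57, -0.47 and -0.17 in the same order.

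**Figure D5:**
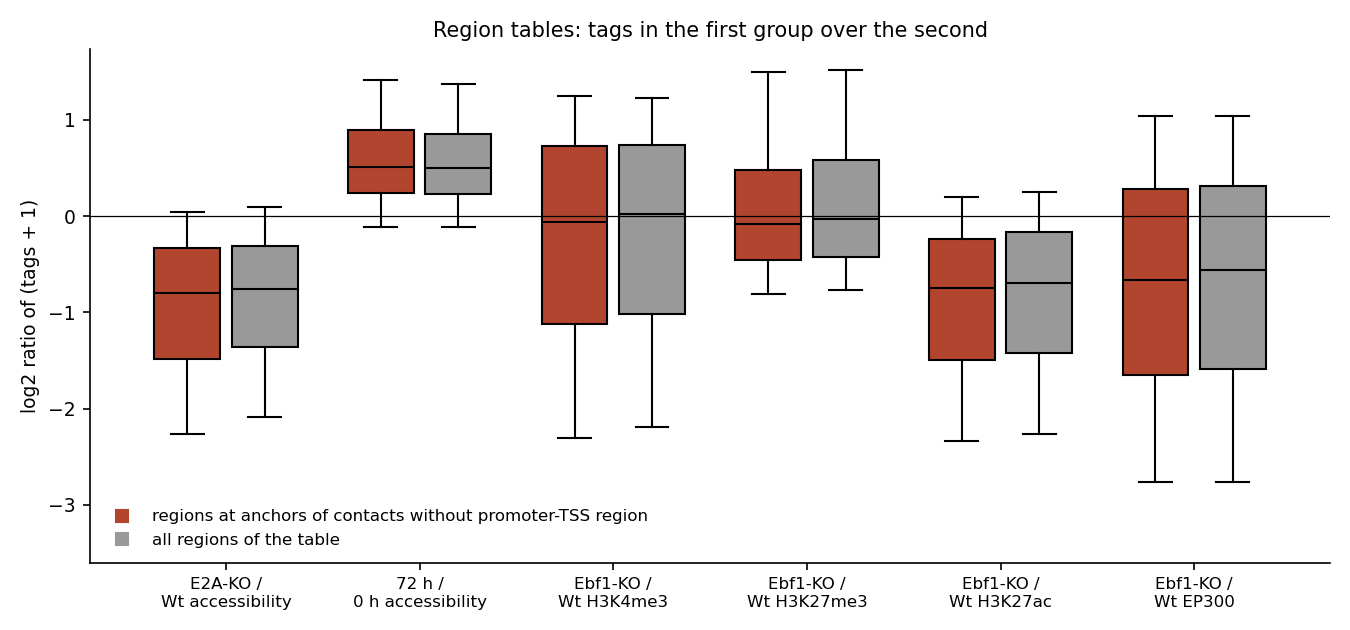
Log2 ratio of tags plus 1 (y axis) in 6 comparisons (x axis), for regions in member anchors (left box) and all regions of the table (right box). Lines are medians, boxes quartiles and whiskers the 10% and 90% quantiles over regions, which are not replicates. The paired medians were -0.80 and -0.76, 0.51 and 0.50, -0.06 and 0.02, -0.08 and -0.03, -0.75 and -0.70, and -0.66 and -0.56.

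At the Foxo1 locus the marks of the member regions differed by position. The first-exon region had 36.7 tags of H3K27me3 in Ebf1-KO against 1.58 in Wt, while H3K4me3 was 366 against 514 and H3K4me2 313 against 74.1. The region at 72356 bases had 26.8 tags of H3K27me3 against 1.15. The region at 175850 bases had 35.5 tags of H3K27ac against 83.1, 5.47 of PolII against 124 and 8.93 of EP300 against 96.6. A Pax5 intron region had 1.22 tags of H3K4me3 against 58.9, and 2.59 of H3K27ac against 19.3.

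Other H3K27me3 regions with high values in Ebf1-KO lay at Kirrel (67.5 against 0.72), Alpl (34.8 against 1.00) and Clgn (52.3 against 2.87). H3K4me3 was lowest in Ebf1-KO at a 4930480K15Rik intron (1.38 against 286), and Cplx2 had 5.05 against 221. The Y-linked genes Ddx3y and Uty had 0.1 and 0 against 45.7 and 36.4. The sex of the pooled fetuses is not in the labels used here, and its part in these values was not tested. H3K4me3 was highest relative to Wt at a Plxdc1 intron (152 against 4.83) and at Hsh2d (120 against 4.57), and a region 43145 bases downstream of the Cxcr4 start had 82.7 against 5.87.

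For H3K27ac, a region upstream of Ufm1 had 1.85 tags in Ebf1-KO against 66.6 in Wt, and Cpq 30.4 against 7.74. EP300 was listed at 0 upstream of Gm2447, against 69.9 in Wt. It was 1.10 against 78.9 in the Nedd9 intron, which was among the lowest in E2A-KO accessibility too. EP300 was higher at a Cmah intron, with 65.0 against 8.03. PolII had 2.74 against 132 at a region upstream of Lef1, a regulator of pro-B cell survival, and 38.0 against 2.34 at the Tbc1d4 intron.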

How the data were processed

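The 2 PLAC-seq libraries of the Abelson line were deposited by the authors as 1 list of contacts between 5 kb bins, with a contact count, p-value and q-value (at most 0.05) for each. Regions were annotated by the authors with HOMER on mm10, per the file headers, which gives each a class and a distance to the nearest start. The Fli1 and Ikzf1 lists hold a peak score of the authors' caller. The region tables hold signal that the authors normalised to 10000000 tags per library, per the file headers. Tools named in the submitters' processing notes, without roles, are HiC-Pro 2.11.1, HOMER 4.10, MACS2, Bowtie2 2.3.5, Trim Galore 0.6.4, deepTools 3.3.1, Picard, SAMtools 1.9, edgeR and FastQC. The builds there are mm10 and GRCm38.p5.

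An overlap of 1 base placed a region or peak in a bin. Shares carry Wilson 95% intervals, medians order-statistic intervals and tags exact Poisson intervals. Ratios used log2 of tags plus 1, and TMM factors came from edgeR 4.0.16 on tags recovered from the library totals. Other tools were Python 3.11.15, pandas 2.3.3, numpy 2.4.6, SciPy 1.17.1 and R 4.3.3. Each group is 1 column, so the planned limma test was not run. Overlap counting and ratios were tested on simulated data.

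Named were the 10 members with the highest count, the 10 longest with at least 10 read pairs, the 10 busiest bins, the 10 strongest with Ebf1-bound regions at both anchors, the leading genes of each list, and 12 fixed genes. Among these, 1 item is not reported here. Per region comparison the rule covers 5 regions each way with at least 20 tags, and the text gives part of them. Cux1, Cxcr4, the miRNA genes, Ywhaz and Stard3nl, and the Igh, Igk and tRNA groups were added after their values were seen. Members and lists were chosen with earlier results of these data known. The header of the Wt ATAC values speaks of 6 pooled libraries, but 3 Wt samples carry that label. There were 2 per-sample columns (Ebf1-KO and Pax5-KO ATAC) that were not used.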

Additional observations from a re-analysis of the deposited data

How the results depend on the processing

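Counting any accessible region within 1 kb of a start as a promoter left 18152 members, with a median span of 115 kb and a median count of 13. Of these 79.3% had an accessible region, 58.8% a Fli1 peak, 22.4% an Ikzf1 peak and 7.09% an Ebf1-bound region, and introns held 46.0% of the regions. With q under 0.01, 18947 remained, at 115 kb and a count of 18, with shares of 92.4%, 74.5%, 27.1% and 8.65% for accessible regions, Fli1, Ikzf1 and Ebf1. Requiring no promoter-TSS region within 5 kb gave 88.2% accessible and 71.5% with Fli1. Requiring the midpoint inside the bin gave 84.9%, 66.5%, 24.0% and 6.73%. Merged anchor extents gave 73.3% for Fli1, 27.9% for Ikzf1 and 8.45% for Ebf1. Peaks at or above the median score gave 53.9% for Fli1 and 14.5% for Ikzf1.

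With a pseudocount of 5 the median log2 ratios at member regions were -0.57 for E2A-KO, 0.41 for 72 h, -0.022 for H3K27me3, -0.54 for H3K27ac and -0.46 for EP300. With TMM factors they were -0.027 for E2A-KO, -0.042 for 72 h, -0.071 for H3K27ac and -0.12 for EP300, so the 72 h direction reversed. Among regions with at least 20 tags in 1 group they were -1.33, 0.59, -0.94 and -0.91 for E2A-KO, 72 h, H3K27ac and EP300. H3K4me3 and H3K27me3 changed sign there, to 0.32 and 1.63. A region passes that filter through the group where it is high, so the filter itself favours changed regions, and these medians say nothing about stability. Counts of regions at least 2-fold different moved by over 1.5 times as well. With a pseudocount of 5, 9 were higher in E2A-KO, 81 higher and 0 lower at 72 h, 189 higher and 361 lower for H3K4me3, 145 higher and 1 lower for H3K27me3, 3 higher for H3K27ac and 46 higher for EP300. With the 20-tag filter 4 were higher and 673 lower in E2A-KO, and 70 were higher and 0 lower at 72 h. H3K4me3 was higher at 193 and lower at 226, H3K27me3 at 48 and 0, H3K27ac at 7 and 448, and EP300 at 35 and 152. The pseudocount counts are out of 2627 member regions for E2A-KO, 743 for 72 h and EP300, and 2034 for the histone marks. The filter left fewer, a number not given here. Shares over all regions were not taken under these 2 settings, so the counts show nothing particular to members. Of all alternatives to reported values 45 were the same within counting error or 1.5 times, 66 moved and 3 reversed. The cause was not tested.

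No paired analysis was possible because each group was 1 pooled or single column, and for the same reason no replicate was left out. Replicate error is therefore unknown for every value. The H3K27me3 medians lay under 1 tag in both genotypes.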
